A study of Mus musculus with 24 samples.

Results

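The distal block of mouse chromosome 5 is the part of that chromosome from position 105000000 to its end at 152537259 (mm9), 47.5 Mb or 31.2% of the chromosome and 1.8% of the genome. Its members are all broad domains called by EDD and all short islands called by SICER that overlapped this interval in 12 chromatin immunoprecipitation (ChIP-seq) libraries. There were 97 EDD domains of 3486 in all libraries and 1636 SICER islands of 87065, together 1733 regions of 90551. The rest of chromosome 5, which is longer, held 141 domains and 1362 islands. The interval was drawn with these domains already seen, so how much of it the domains covered is given as a description. No region crossed the proximal boundary, since the nearest EDD domain before it ended 2084 kb away (3A6 WT, 12 cycles) and the nearest after it began 116 kb away (N18 WT and N18 KO, 30 cycles). The block was gene-rich, with 647 protein-coding genes (13.6 per Mb, against 6.3 in the rest of the chromosome and 8.47 in the genome) and a G+C content of 46.5% (40.7% and 41.8%).

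The study asked which chromatin nuclear lamins and LAP2alpha bind in immortalized mouse dermal fibroblasts, and how loss of LAP2alpha alters the binding of A-type lamins. Cells were Lap2alpha +/+ (WT) or Lap2alpha -/- (KO, a deletion within the gene Tmpo), and chromatin was sheared by 12 or 30 cycles of sonication. Antibodies were directed against LAP2alpha (WT), against lamin A/C (N18, which recognizes the N terminus, and 3A6, which recognizes the C-terminal Ig fold, both in WT and KO) and against lamin B1 (WT). Each of the 12 groups was 1 library, 8 from WT and 4 from KO, so no spread between replicates exists, no p-value was computed, and every difference below is between 2 libraries. Both genotypes were cell lines, and neither the fibroblast identity nor the deletion could be checked from lists of regions. At a given sonication, lamin A/C chromatin of both genotypes was sequenced in 1 lane. The 12- and 30-cycle libraries came from different flow cells except for lamin B1, so flow cell and sonication cannot be told apart for LAP2alpha and lamin A/C. The SICER islands held 3989494 to 13601739 reads per library, at 21.1 to 49.6 reads per kb of island.

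Lamins are intermediate filament proteins that form a meshwork beneath the inner nuclear membrane, and the chromatin that touches this meshwork lies in long, mostly gene-poor lamina-associated domains. Lamin B1 stays at the membrane, whereas part of the A-type lamin pool, lamin A and lamin C, is free in the nuclear interior. LAP2alpha, an isoform of the gene Tmpo without a transmembrane segment, binds that interior pool.

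The sequences that follow stand for the patterns described in the block. For 6 genes, the bases before the start of transcription are from the RefSeq promoter table (GRCm38.p6), each read in the direction of its gene. They were placed on mm9 by an exact match that was unique on chromosome 5, the only chromosome searched. Sun1 has 2 starts in that table, of which the first is used. The starts used for Stard13 and Cux1 lie inside the annotated mm9 spans of these genes. Sdk1 lay in domains of all 12 libraries, Sun1 of 7, Vmn2r13 of 5 including lamin B1, Cux1 of 4, Flt1 of LAP2alpha alone and Stard13 of none. Sdk1 was added after its values were seen, beside Tmem132d, which has no entry printed here. Up to 250 bases are shown, without any base in an annotated exon, and capitals mark the dinucleotide CG.

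Sdk1, chr5:141717238-141717443, plus strand: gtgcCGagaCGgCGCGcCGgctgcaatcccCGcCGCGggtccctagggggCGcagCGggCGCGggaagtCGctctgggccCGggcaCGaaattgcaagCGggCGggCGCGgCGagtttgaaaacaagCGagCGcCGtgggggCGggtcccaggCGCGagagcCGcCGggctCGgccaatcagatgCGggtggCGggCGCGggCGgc

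Sun1, chr5:139676341-139676590, plus strand: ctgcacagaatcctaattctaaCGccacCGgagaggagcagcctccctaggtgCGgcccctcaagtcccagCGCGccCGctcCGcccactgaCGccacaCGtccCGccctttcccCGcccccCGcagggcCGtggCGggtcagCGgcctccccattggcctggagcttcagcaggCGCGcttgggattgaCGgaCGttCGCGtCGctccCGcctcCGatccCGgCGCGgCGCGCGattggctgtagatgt

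Vmn2r13, chr5:109621127-109621376, minus strand: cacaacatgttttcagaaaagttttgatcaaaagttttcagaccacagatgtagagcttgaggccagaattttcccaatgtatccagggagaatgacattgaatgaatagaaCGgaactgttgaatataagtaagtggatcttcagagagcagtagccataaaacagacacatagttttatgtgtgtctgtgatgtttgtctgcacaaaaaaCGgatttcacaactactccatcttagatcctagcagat

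Cux1, chr5:137041852-137042101, minus strand: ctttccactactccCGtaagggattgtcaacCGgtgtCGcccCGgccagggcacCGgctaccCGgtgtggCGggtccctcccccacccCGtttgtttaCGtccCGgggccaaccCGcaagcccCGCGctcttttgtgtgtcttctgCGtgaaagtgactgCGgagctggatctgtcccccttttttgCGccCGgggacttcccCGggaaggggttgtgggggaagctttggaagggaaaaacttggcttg

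Flt1, chr5:148537588-148537837, minus strand: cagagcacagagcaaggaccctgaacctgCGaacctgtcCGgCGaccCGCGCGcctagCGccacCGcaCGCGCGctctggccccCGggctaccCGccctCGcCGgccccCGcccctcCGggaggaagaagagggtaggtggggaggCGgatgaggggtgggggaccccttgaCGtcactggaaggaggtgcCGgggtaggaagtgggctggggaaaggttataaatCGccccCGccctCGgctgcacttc

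Stard13, chr5:151992845-151993018, minus strand: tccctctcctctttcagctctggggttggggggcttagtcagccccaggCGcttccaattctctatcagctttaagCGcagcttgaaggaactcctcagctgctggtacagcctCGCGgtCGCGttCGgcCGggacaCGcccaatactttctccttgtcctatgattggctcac

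The window that most libraries shared among their islands lay between Cyp3a41b and Cyp3a41a, outside any protein-coding gene. Its middle 300 bases, from the mm9 genome, are shown because no stretch of the block was an island in more than these 11 libraries.

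Island window, chr5:146403351-146403650, plus strand: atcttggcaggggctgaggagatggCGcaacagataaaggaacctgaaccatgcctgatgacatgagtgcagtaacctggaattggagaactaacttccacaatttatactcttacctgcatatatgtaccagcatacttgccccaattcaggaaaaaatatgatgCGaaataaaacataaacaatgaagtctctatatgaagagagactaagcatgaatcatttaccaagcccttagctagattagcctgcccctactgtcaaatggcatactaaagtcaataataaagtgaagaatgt

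In the 250 bases before each start, Sdk1 had 44 CG dinucleotides, Sun1 30, Flt1 23, Cux1 18, Stard13 11 and Vmn2r13 2. Of the 32851 promoters of the table, 0.539% had at least as many as Sdk1, 5.94% as Sun1, 13.3% as Flt1, 21.7% as Cux1, 35.6% as Stard13 and 81.2% as Vmn2r13. In these 6 genes the order of CG numbers and the order of library numbers were not the same, since Vmn2r13, held by 5 libraries, had fewer CG than Stard13, held by none. Over all 647 genes of the block, counted before their annotated mm9 starts, the median was 12 CG, and 57.7% had 10 or more, against 50.8% of the 662 genes in the rest of the chromosome. The share was 47.6% of the 42 genes in stretches held by none, 67.1% at 1 to 3 libraries, 58.3% at 4 to 6 and 57.4% at 7 to 9. In stretches held by 10 to 11 libraries 6 of 16 genes had 10 or more CG, and in those held by all 12 libraries 6 of 12.

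EDD domains of LAP2alpha and of lamin A/C in WT at 12 cycles took up most of the block. LAP2alpha covered 85.7% of it in 1 domain of 40.8 Mb, 3A6 covered 80.6% in 7 domains, and N18 covered 79.1% in 5. Lamin B1 covered 18.4% in 9 domains. In KO at 12 cycles N18 covered 65.2% in 6 domains and 3A6 covered 33.8% in 14. The order of the 12-cycle libraries thus ran from LAP2alpha through both WT lamin A/C libraries to N18 KO, 3A6 KO and lamin B1. At 30 cycles the largest coverage was that of N18 KO, 82.6% in 5 domains. It was followed by 3A6 KO at 59.4% in 10 domains, LAP2alpha at 42.1% in 8, N18 WT at 33.2% in 15, lamin B1 at 23.1% in 9 and 3A6 WT at 18.7% in 8. The largest single domain of N18 KO at 30 cycles (32.5 Mb) was close in length to those of N18 WT (32.7 Mb) and 3A6 WT (31.6 Mb) at 12 cycles, while at 30 cycles no WT domain in the block exceeded 6.16 Mb.

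**Figure D1:**
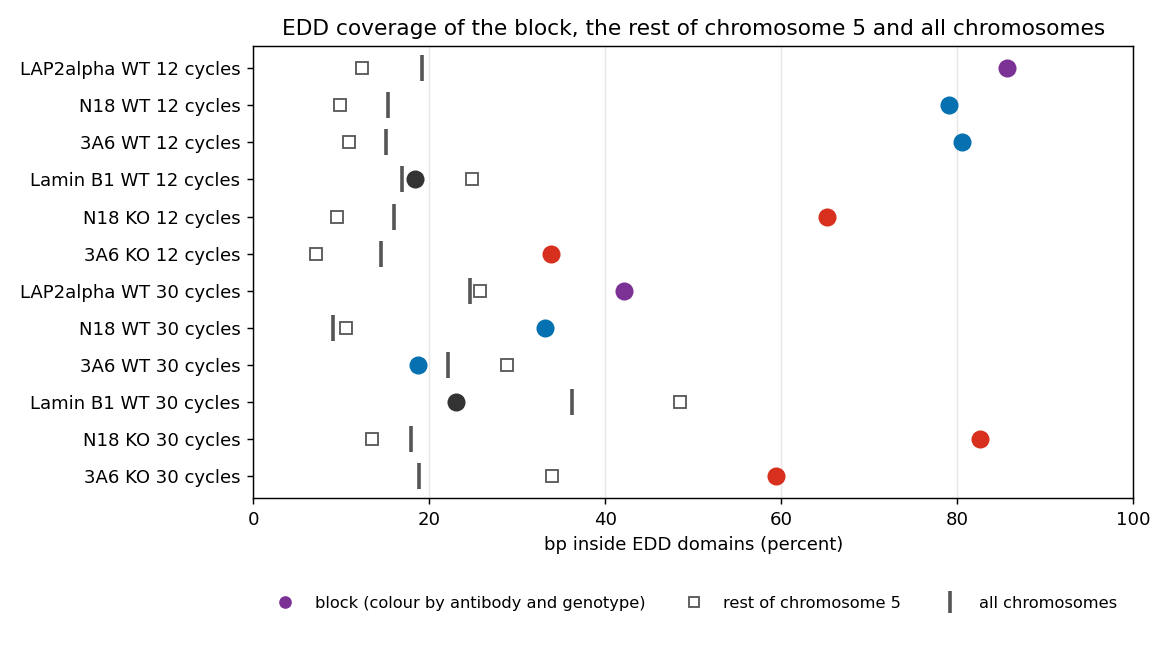
Percent of bp inside EDD domains for each of the 12 libraries (rows), in the block (filled circles, purple for LAP2alpha, blue for lamin A/C WT, red for lamin A/C KO, black for lamin B1), in the rest of chromosome 5 (open squares) and on all chromosomes (vertical ticks). In 9 libraries the block lies to the right of both other values, and in both lamin B1 libraries and 3A6 WT at 30 cycles it lies to the left of the rest of the chromosome.

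Whether the block stood out depended on the library. In LAP2alpha at 12 cycles, 12.4% of the rest of chromosome 5 and 19.2% of the genome were inside domains, against 85.7% of the block. The block alone held 8.05% of all domain bp in that library, 9.62% in 3A6 WT at 12 cycles and 9.31% in N18 WT at 12 cycles. In lamin B1 the block was less covered than the rest of the chromosome, 18.4% against 24.9% at 12 cycles and 23.1% against 48.5% at 30 cycles. The same held for 3A6 WT at 30 cycles (18.7% against 28.8%).

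A gene was counted when at least 50% of its length lay inside domains. The share of genes was near the share of bp in LAP2alpha, N18 WT and 3A6 WT at 12 cycles and in N18 KO at 30 cycles. In the other libraries it was lower, for example 13% of genes against 33.8% of bp in 3A6 KO at 12 cycles. In N18 WT at 30 cycles it was 11.4% against 33.2%. LAP2alpha at 12 cycles held 564 of the 647 genes of the block (87.2%, against 35.9% of all 22350 protein-coding genes of the genome). N18 WT at 12 cycles held 514 (79.4%, against 27.4%) and 3A6 WT at 12 cycles 520 (80.4%, against 21.1%). N18 KO at 12 cycles held 366 (56.6%, against 23.1%). These 4 libraries held most of the block's genes, and in each the share was more than that over the genome. 3A6 KO at 12 cycles held 84 (13%, against 10.7%), and lamin B1 45 (6.96%, against 7.76%), close to their shares of all genes. At 30 cycles N18 KO held 537 (83%, against 28.5%), 3A6 KO 302 (46.7%, against 12.6%), LAP2alpha 235 (36.3%, against 32.3%) and N18 WT 74 (11.4%, against 5.89%). Lamin B1 held 48 (7.42%, against 16.8%) and 3A6 WT 40 (6.18%, against 9.42%), fewer for the block than over the genome.

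The domain map showed the block as an alternation of 9 lamin B1 domains and the longer intervals between them, here taken from lamin B1 at 30 cycles, a reference chosen after the domains were seen. The 9 lamin B1 domains summed to 11 Mb with 48 genes, 4.36 per Mb, at 43.6% G+C. The intervals between and beside them summed to 36.5 Mb with 599 genes, 16.4 per Mb, at 47.4% G+C. Gene density within 1-Mb bins of the block ranged from 0 to 42 per Mb with a median of 11, and both extremes lay inside the 40.8-Mb LAP2alpha domain.

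**Figure D2:**
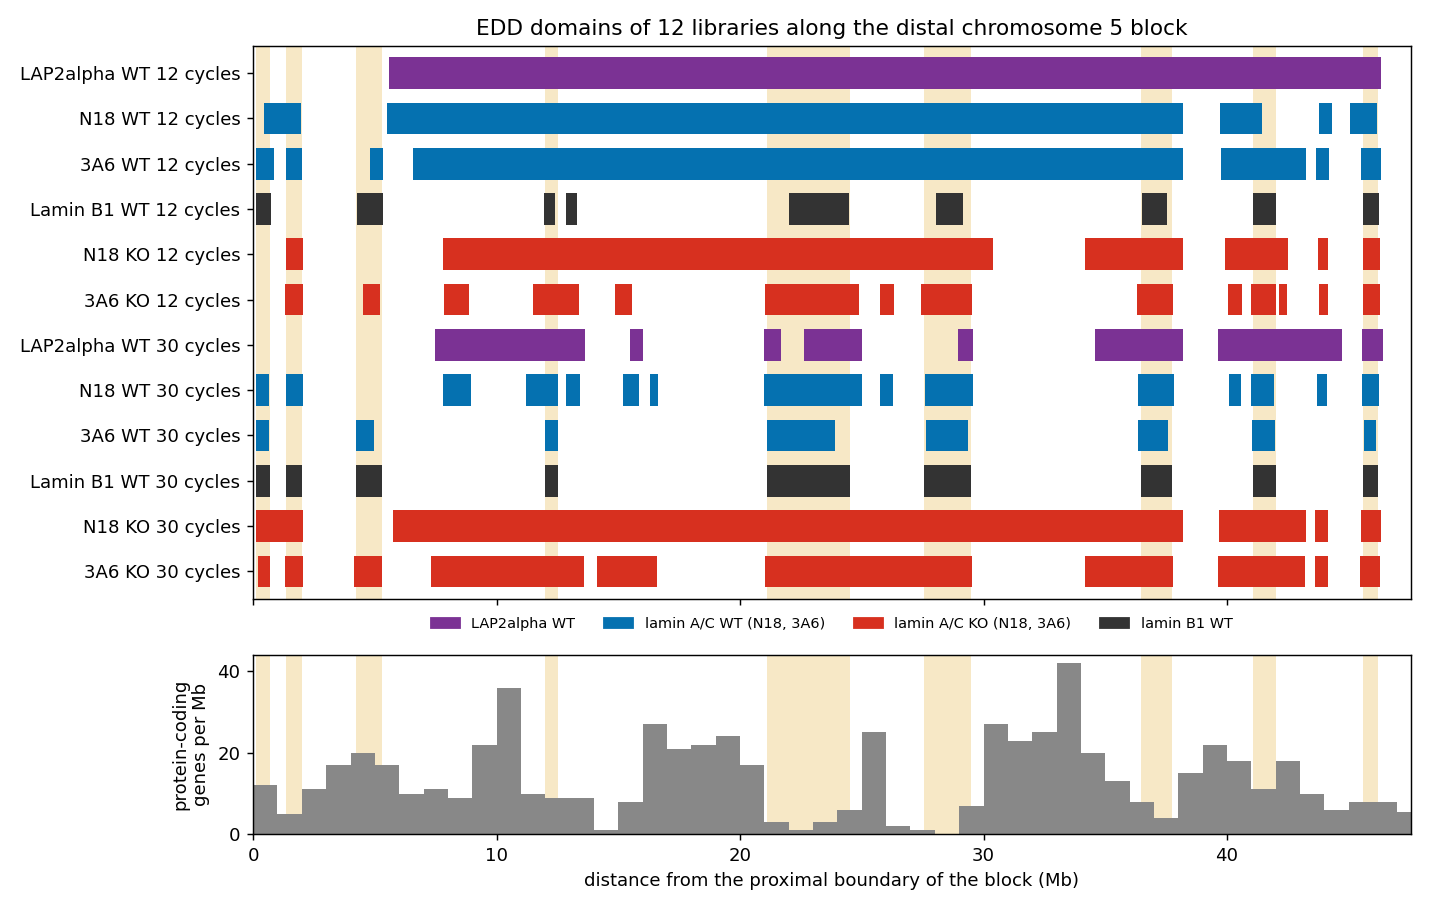
EDD domains of the 12 libraries (rows, colored as in the key) and protein-coding genes per Mb in 1-Mb bins (lower panel) against the distance in Mb from the proximal boundary of the block. Shaded bands are the 9 lamin B1 domains of 30 cycles, on which the short bars of 3A6 WT at 30 cycles fall. The long purple bar of LAP2alpha at 12 cycles runs through the distal 6, and the longest blue and red bars end before the last of them.

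Of the 9 lamin B1 domains, the longest ran from 126126001 to 129503000 (3.38 Mb, 11 genes). It holds Tmem132c, Tmem132d and most of Tmem132b, members of a family of transmembrane proteins expressed in the nervous system, and all 12 libraries held more than 70% of it. The next, from 132572001 to 134475000 (1.9 Mb), held 0 protein-coding genes by midpoint and takes in 40.4% of Auts2, a very long gene active in the brain. LAP2alpha at 30 cycles held 28.3% of it, the only library under 50%. From 141482001 to 142758000 (1.28 Mb) lay Sdk1, which encodes an adhesion molecule of neuronal synapses. In 3 short domains, too, at least 11 libraries covered most of each. From 116974001 to 117524000 (0.55 Mb, 2 genes) every library held 80% or more. From 146058001 to 147015000 (0.957 Mb, 9 genes) lay the Cyp3a cluster, cytochrome P450 enzymes of the liver and gut, where N18 WT at 12 cycles held 37.9% and the other 11 libraries 89.7% or more. From 150579001 to 151206000 (0.627 Mb) lay Rxfp2, a receptor for a relaxin-like peptide, and Fry, where the lowest value was 78.9%, in 3A6 WT at 30 cycles.

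The 3 lamin B1 domains nearest the proximal boundary differed from those 6, because LAP2alpha did not hold them at either sonication. The first, from 105127001 to 105699000 (0.572 Mb, 8 genes), holds Gbp8, Gbp9 and Gbp10, interferon-induced GTPases. N18 WT at 12 cycles held 42.3% of it. It was held at 86.5% or more by 3A6 WT, N18 WT, 3A6 KO and N18 KO at 30 cycles and whole by 3A6 WT and lamin B1 at 12 cycles, and neither KO library of 12 cycles held any of it. The second, from 106370001 to 107019000 (0.649 Mb), has 1 gene, Barhl2, a homeodomain factor of the nervous system. N18 held it in all 4 libraries (94.9% in WT at 12 cycles, whole in the others), while lamin B1 at 12 cycles and 3A6 WT at 30 cycles held none of it. The third, from 109219001 to 110308000 (1.09 Mb, 14 genes, 39.5% G+C), carries the vomeronasal type 2 receptor genes, pheromone receptors of the vomeronasal organ. N18 held none of it in any of 4 libraries, and 3A6 held it in all 4 (47.5% in WT and 64.6% in KO at 12 cycles, 67.7% and 98% at 30 cycles).

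**Figure D3:**
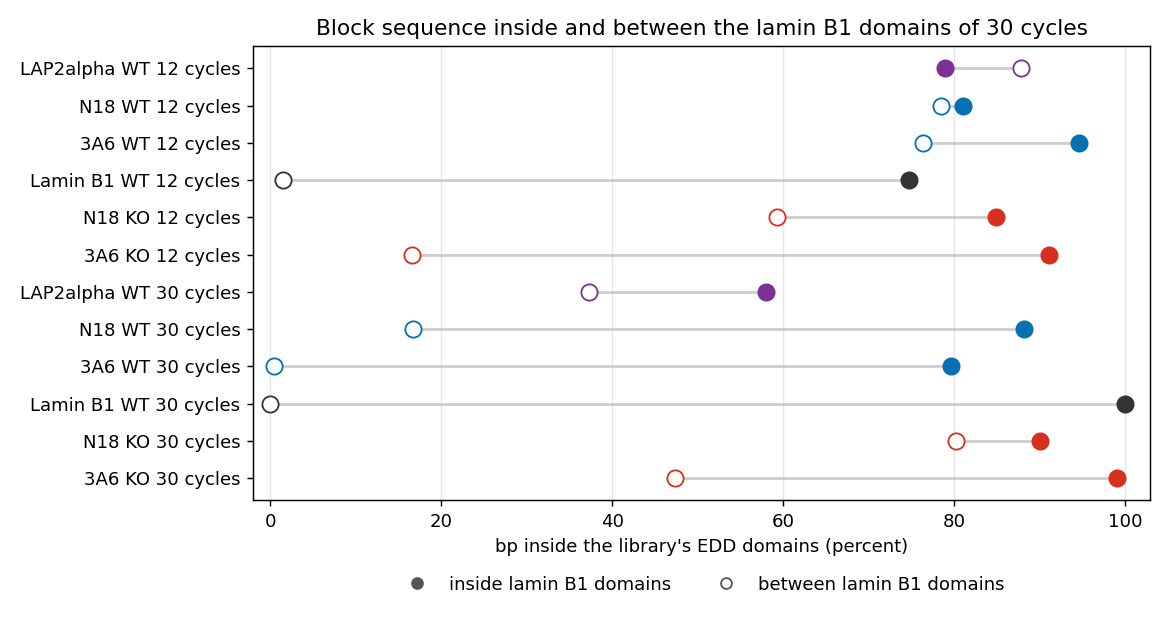
Percent of the sequence inside (filled) and between (open) the 9 lamin B1 domains of 30 cycles that each library's EDD domains held, with 1 row per library and colors for antibody and genotype. Inside, the libraries other than LAP2alpha at 30 cycles lie at 74.8% or more, and between, libraries other than lamin B1 at 30 cycles, which is at 0 by definition, spread from 0.421% in 3A6 WT at 30 cycles to 87.8% in LAP2alpha at 12 cycles.

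Libraries differed mostly in the sequence between the lamin B1 domains. Inside those domains, 10 of the 11 other libraries held between 74.8% (lamin B1, 12 cycles) and 99.1% (3A6 KO, 30 cycles), and LAP2alpha at 30 cycles held 58%. Over the genome the 11 libraries held from 8.07% (N18 WT, 12 cycles) to 57.9% (3A6 WT, 30 cycles) of the lamin B1 bp of 30 cycles. In the block LAP2alpha, N18 WT and 3A6 WT at 12 cycles held 79%, 81.1% and 94.6% of these bp. They covered 85.7%, 79.1% and 80.6% of the whole block. Between the lamin B1 domains, LAP2alpha at 12 cycles held 87.8%, N18 KO at 30 cycles 80.3%, N18 WT at 12 cycles 78.5%, 3A6 WT at 12 cycles 76.4% and N18 KO at 12 cycles 59.3%. 3A6 KO at 30 cycles held 47.4% and LAP2alpha at 30 cycles 37.3%. The remaining libraries held little there, namely N18 WT at 30 cycles 16.7%, 3A6 KO at 12 cycles 16.6%, lamin B1 at 12 cycles 1.48% and 3A6 WT at 30 cycles 0.421%. Of the 3A6 WT domain bp of 30 cycles in the block, 98.3% lay inside lamin B1 domains, against 27.2% for 3A6 WT at 12 cycles and 21.3% for LAP2alpha at 12 cycles. Over the genome the same shares were 94.9%, 29.1% and 18.4%.

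What a library held between the lamin B1 domains was not of one kind. The part held by LAP2alpha, N18 WT and 3A6 WT at 12 cycles had 16.8, 17.1 and 17.3 genes per Mb, and that held by N18 KO at 30 cycles had 17.1. The part held by 3A6 KO at 12 cycles had 8.1 genes per Mb and that of N18 WT at 30 cycles 6.89, so in these 2 libraries the domains outside lamin B1 lay in the sparser sequence. G+C content was nearly even over these parts, 47.4% to 48.6% in the 11 libraries that had one.

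Cutting the block at every domain edge of any library gave 165 stretches of constant library set, 77 of them at least 100 kb long (94.1% of the block), with 86 different sets. Genes are assigned to a stretch by their midpoint. Gene density rose and fell with the number of libraries that held a stretch. Stretches held by none had 12 genes per Mb (3.49 Mb), by 1 to 3 libraries 14.1 (5.19 Mb), by 4 to 6 libraries 19 (16.9 Mb) and by 7 to 9 libraries 14.3 (12.8 Mb). Stretches held by 10 to 11 libraries had 2.99 genes per Mb (5.36 Mb) and by all 12 libraries 3.13 (3.84 Mb). G+C content was lowest where no library had a domain (42.3%), highest at 7 to 9 libraries (48.2%) and 44.6% where all 12 did, so the stretches held by none were poor in G+C without being poor in genes.

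**Figure D4:**
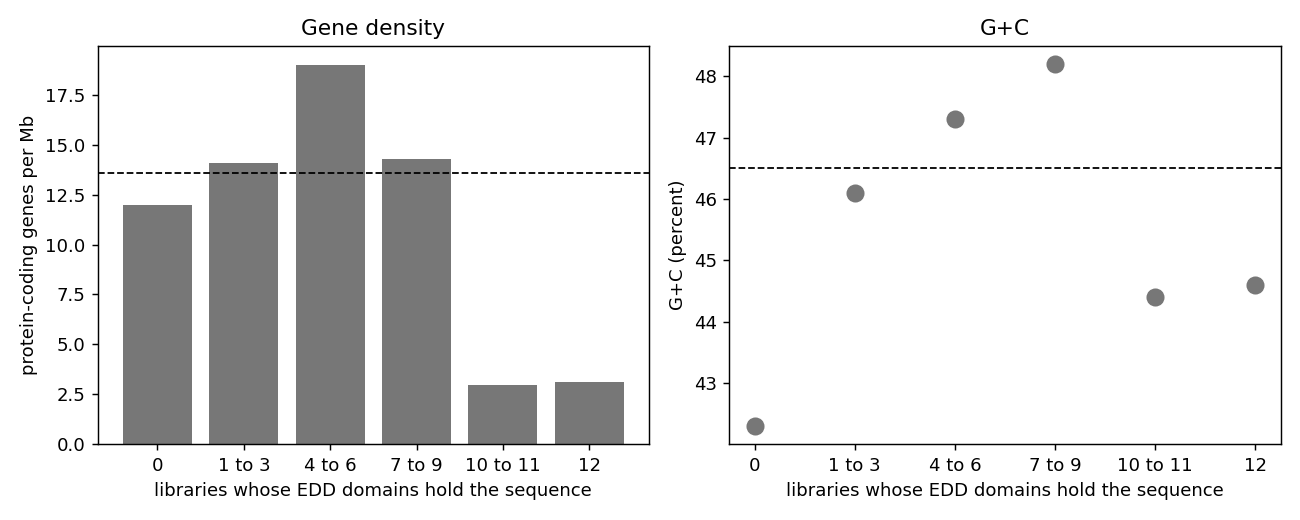
Protein-coding genes per Mb (left, bars from 0) and G+C in percent (right, points, axis not from 0) of the block's sequence grouped by how many of the 12 libraries held it in EDD domains, with dashed lines at the values of the whole block (13.6 genes per Mb and 46.5%). Density is highest at 4 to 6 libraries (19 per Mb) and falls to about 3 per Mb at 10 or more.

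The longest stretches show which genes lay in each kind of sequence. The longest of all, from 121638001 to 125983000 (4.34 Mb, 93 genes, 21.4 per Mb), was held by 5 libraries, LAP2alpha, N18 WT, 3A6 WT and N18 KO at 12 cycles and N18 KO at 30 cycles. It includes Cux2, a homeodomain factor of cortical neurons, the purinergic receptor genes P2rx4 and P2rx7, and the ribosomal protein gene Rpl6. The second, from 135377001 to 139150000 (3.77 Mb, 113 genes, 29.9 per Mb), was held by 4 of these, without N18 KO at 12 cycles. It includes Cux1, the paralog of Cux2, the replication helicase gene Mcm7, and the nucleoporin gene Pom121.

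Another 2 long gene-rich stretches were shared by the same 7 libraries, the 5 above with LAP2alpha and 3A6 KO at 30 cycles. From 113949001 to 116193000 (2.24 Mb, 63 genes, 28.1 per Mb) they held Rplp0, a ribosomal protein gene, and Oasl1 and Oasl2. From 139579001 to 141306000 (1.73 Mb, 32 genes, 18.5 per Mb) they held Sun1, whose protein spans the inner nuclear membrane and binds lamins, and Mad1l1, a gene of the mitotic checkpoint. Both had a G+C content near 50% (49.9% and 50.5%), above the 46.5% of the block.

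At the other end, 1.42 Mb from 143209001 to 144628000 with 24 genes (16.9 per Mb) was held by LAP2alpha at 12 cycles alone. It holds the cytoplasmic actin gene Actb, the actin-bundling gene Fscn1 and Rac1, a GTPase that drives actin assembly. In 2 long stretches no library had a domain. The first, from 107052001 to 109131000 (2.08 Mb, 32 genes), includes Tgfbr3, a TGF-beta co-receptor, and Evi5, and the second, from 151426001 to the chromosome end (1.11 Mb, 7 genes), includes Stard13, which encodes a GTPase-activating protein, and Vmn2r18. The longest stretch held by all 12 libraries ran from 127611001 to 128887000 (1.28 Mb, 4 genes, 3.13 per Mb) over Tmem132c and Tmem132d. No stretch was held by all 8 WT libraries and no KO library, nor by all 4 KO libraries and no WT library.

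The comparison of genotypes asked where lamin A/C was found with and without LAP2alpha. With N18 at 12 cycles, 7.89 Mb of WT domains in the block were absent from KO (lost), 29.7 Mb were in both (kept) and 1.28 Mb were in KO alone (gained). With 3A6 at 12 cycles the lost sequence came to 22.6 Mb, the kept to 15.7 Mb and the gained to 0.341 Mb. KO thus held less of the block than WT with both antibodies at 12 cycles. Of its domain bp, 95.9% with N18 and 97.9% with 3A6 lay within those of WT, against 58.5% and 48.6% over the genome. The WT domains covered 79.1% and 80.6% of the block, so much of this overlap was given by their coverage. The lost sequence was denser in genes than the kept, 20.9 against 11.7 per Mb with N18 and 19.6 against 4.96 with 3A6. Counted as genes, 165 of 647 were lost with N18 (25.5%, against 11.9% of all genes), 349 kept (53.9%, against 15.5%) and 16 gained (2.47%, against 7.63%). With 3A6, 441 were lost (68.2%, against 15.3%), 78 kept (12.1%, against 5.71%) and 5 gained (0.773%, against 4.99%). These shares depend on how many genes the WT domains held to begin with. Of the WT domain bp, KO kept 79% in the block with N18, against 61.1% over the genome, and 41% with 3A6, against 46.8%. In the rest of the chromosome it kept 78.6% with N18 and 52.7% with 3A6. Measured this way, the block lost a smaller part of its N18 domains than the genome did, as did the rest of the chromosome. Of its 3A6 domains the block lost a larger part than either.

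**Figure D5:**
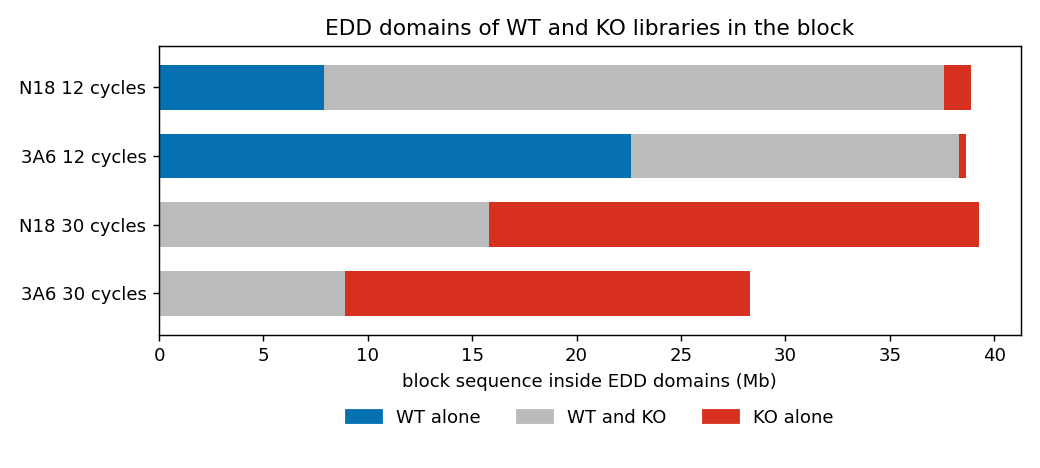
Sequence of the block in Mb inside EDD domains of WT alone (blue), of both genotypes (grey) and of KO alone (red), stacked from 0, for the 4 comparisons of KO with WT. The blue parts are 7.89 and 22.6 Mb at 12 cycles and at most 0.055 Mb at 30 cycles, and the red parts are at most 1.28 Mb at 12 cycles and 23.5 and 19.4 Mb at 30 cycles.

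At 30 cycles the difference ran the other way. With N18 the KO domains contained all 15.8 Mb of the WT domains and 23.5 Mb more. With 3A6 they contained 8.86 Mb of them and 19.4 Mb more, and 0.055 Mb was in WT alone. The kept shares of WT domain bp were 100.0% and 99.4%, against 69.9% and 44.5% over the genome. The KO domains covered 82.6% and 59.4% of the block. In the N18 comparison 463 genes were gained (71.6%, against 24.4% of all genes), 74 kept (11.4%, against 4.13%) and 0 lost (0%, against 1.75%). In the 3A6 comparison 262 were gained (40.5%, against 8.92%), 40 kept (6.18%, against 3.66%) and 0 lost (0%, against 5.74%). The gained sequence had 19.7 genes per Mb with N18 and 13.5 with 3A6, and the kept sequence 4.68 and 4.52, so in each of these comparisons, as in those of 12 cycles, the kept sequence had fewer genes per Mb than the larger of the differing parts. The block is 1.8% of the genome and held 7.68% of all bp gained with N18 at 30 cycles, 8.04% of those gained with 3A6 at 30 cycles, 5.02% of those lost with N18 at 12 cycles and 10.7% of those lost with 3A6 at 12 cycles. It also held 9.31% (N18) and 9.62% (3A6) of all WT domain bp at 12 cycles. Of all KO domain bp at 30 cycles it held 8.32% and 5.65%.

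Island reads, summed over the called islands and so dependent on their length, moved with the difference in 3 of the 4 comparisons. In the block, islands of N18 at 30 cycles held 72432 reads in WT (34.7 per kb of island) and 261661 in KO (44.1 per kb), and those of 3A6 8213 in WT (35.1 per kb) and 65473 in KO (43.6 per kb). At 12 cycles N18 islands held 66930 reads in WT and 67674 in KO (18.6 and 18.9 per kb), and 3A6 islands 73749 and 21799 (18.7 and 18.6 per kb). Island reads were thus higher in KO at 30 cycles and lower in KO with 3A6 at 12 cycles, while with N18 at 12 cycles they were nearly equal although KO domains covered less. Reads per kb of island were higher in KO at 30 cycles only, and nearly equal between genotypes at 12 cycles with both antibodies. The part of read numbers and read density in the result was not tested.

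The longest stretch lost with N18 at 12 cycles, from 135377001 to 139161000 (3.78 Mb, 113 genes), was also the longest that N18 KO held at 30 but not at 12 cycles. It includes Stx1a, Mlxipl and Baz1b of the Williams-Beuren interval, whose human counterpart is deleted in Williams syndrome, and Cux1 and Mcm7. The longest lost with 3A6 at 12 cycles, from 134541001 to 141306000, and the longest gained with N18 at 30 cycles, from 134574001 to 141339000, were both 6.76 Mb with 164 genes. They include the whole of that stretch and Gtf2ird2, a transcription factor gene at the proximal side of the Williams-Beuren interval. The longest gained with 3A6 at 30 cycles lay elsewhere, from 112321001 to 116974000 (4.65 Mb, 87 genes), with Coro1c, an actin-binding coronin gene, Rplp0 and Cit, a kinase of cytokinesis.

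Gains at 12 cycles were short, and the longest of each antibody overlapped a gene cluster of a lamin B1 domain. The longest with N18 ran from 146421001 to 147488000 (1.07 Mb, 16 genes) over Cyp3a41a, Cyp3a44, Cyp3a11, Cyp3a25 and Cyp3a59. The longest with 3A6 ran from 109516001 to 109791000 (0.275 Mb) over Vmn2r12 to Vmn2r16. The longest kept stretches were 22.6 Mb for N18 at 12 cycles, from 112805001 to 135377000, and 3.86 Mb for 3A6 at 12 cycles, from 126027001 to 129888000, over the Tmem132 genes and Ran, a GTPase of nuclear transport. At 30 cycles the longest kept stretch of both antibodies also included the Tmem132 genes, 4.01 Mb with N18 and 2.76 Mb with 3A6.

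The comparison of sonications asked which sequence was found after gentle and after extended shearing. In WT, LAP2alpha had 20.8 Mb at 12 cycles alone, 19.9 Mb at both and 0.088 Mb at 30 cycles alone. N18 WT had 22.8, 14.8 and 1.03 Mb in the same order, and 3A6 WT 30, 8.34 and 0.572 Mb. WT domains of 30 cycles therefore lay within those of 12 cycles by 99.6%, 93.5% and 93.6% of their bp, against 48.1%, 50.9% and 10.8% over the genome. The 12-cycle domains covered 85.7%, 79.1% and 80.6% of the block, so much of this overlap was given by their coverage. In KO the nesting was reversed, with 0, 31 and 8.26 Mb for N18 and 0.022, 16 and 12.2 Mb for 3A6. All of the 12-cycle bp of N18 and 99.9% of those of 3A6 lay within the domains of 30 cycles. These shares were 95.1% and 97.1% in the rest of the chromosome and 69.3% and 59.6% over the genome. The 30-cycle KO domains covered 82.6% and 59.4% of the block. Lamin B1, the only pair from the same lane, had 0.539 Mb at 12 cycles alone, 8.23 Mb at both and 2.77 Mb at 30 cycles alone.

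In genes, LAP2alpha held 331 at 12 cycles alone (51.2%, against 15.7% of all genes), 233 at both (36%, against 20.2%) and 2 at 30 cycles alone (0.309%, against 12.1%). N18 WT held 450 (69.6%, against 24.2%), 64 (9.89%, against 3.19%) and 9 (1.39%, against 2.69%). 3A6 WT held 490 (75.7%, against 20.1%), 30 (4.64%, against 1%) and 10 (1.55%, against 8.41%). In these 3 WT pairs the genes held at 12 cycles alone were the most numerous class. Of their 12-cycle domain bp in the block, 48.9%, 39.3% and 21.8% lay in the domains of 30 cycles. Over the genome these shares were 61.7%, 30.1% and 15.7%. N18 KO held 0 (0%, against 6.82%), 366 (56.6%, against 16.3%) and 171 (26.4%, against 12.2%). 3A6 KO held 0 (0%, against 5.48%), 84 (13%, against 5.22%) and 217 (33.5%, against 7.35%). Lamin B1 held 2 (0.309%, against 0.582%), 42 (6.49%, against 7.16%) and 6 (0.927%, against 9.6%), so most of the block's lamin B1 genes were found at both sonications.

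The longest stretch of LAP2alpha at 12 cycles alone was 5 Mb, from 134574001 to 139579000, with 132 genes from the Williams-Beuren interval onward, and for N18 WT the one from 134574001 to 141339000 given above. For 3A6 WT it was 8.59 Mb, from 117535001 to 126126000, with 136 genes, among them Nos1, the neuronal nitric oxide synthase, the limb and heart factors Tbx3 and Tbx5, and the Oas1 genes. At 30 cycles alone the longest of LAP2alpha was 0.088 Mb over Brca2, a gene of DNA repair, and N4bp2l1, that of N18 WT 0.495 Mb over the Cyp3a cluster and that of 3A6 WT 0.572 Mb over Vmn2r8 to Vmn2r16. For KO at 30 cycles alone it was 3.78 Mb with N18, over Cux1, and 2.65 Mb with 3A6, from 113850001 to 116501000 over Coro1c and Rplp0.

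Domains of libraries that differed in antibody, genotype or sonication could be nearly nested in one another. Of the N18 KO domain bp of 30 cycles in the block, 96.2% lay within 3A6 WT domains of 12 cycles, 95.1% within LAP2alpha domains of 12 cycles and 93.6% within N18 WT domains of 12 cycles, against 64.6%, 74% and 64.5% over the genome. These 3 libraries covered 80.6%, 85.7% and 79.1% of the whole block, so any sequence there would overlap them largely. Of the N18 WT bp of 30 cycles, 87.5% lay within 3A6 KO domains of 12 cycles (72% over the genome), and conversely 86% of 3A6 KO lay within N18 WT (44.7%). Of the 3A6 WT bp of 30 cycles, 98.3% lay within lamin B1 of 30 cycles and 85.9% within LAP2alpha of 12 cycles (94.9% and 7.64%). The 85.9% is no more than the coverage of the block by LAP2alpha would give. LAP2alpha at 12 cycles held 81.3% of the lamin B1 bp of 12 cycles in the block, close to the 85.7% of the whole block that its domains covered, and 16% over the genome.

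The 97 domains had 194 edges, and edges within 50 kb of one another were joined into 91 groups. Of these, 54 came from 1 library and 22 from 3 or more, and the 22 held 56.7% of all edges. EDD worked in bins of 11 kb, so positions are no finer than that. The group with the most libraries lay at the distal end, where domains of 11 libraries ended between 151140001 and 151338000, most of them within Fry, a very large gene, and LAP2alpha at 30 cycles ended at 151426000. In 9 libraries the last domain began between 150480001 and 150590000, near B3galtl, a glycosyltransferase gene. To the left of these starts the 500-kb flank had 12 genes per Mb and to the right 2.

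Gene density on the sides of other shared edges changed in either direction or little. Domains of 8 libraries ended between 106986001 and 107052000 at Zfp644, where the gene-bearing sequence that no library held begins, with 4 genes per Mb to the left and 6 to the right, and 6 libraries began between 106315001 and 106370000 near Zfp326. At these starts the flanks had 12 genes per Mb to the left and 0 to the right. Domains of 6 libraries began between 105116001 and 105127000, with 0 genes per Mb to the left and 14 to the right. In 7 libraries, all of them lamin A/C, a domain began between 148599001 and 148775000 near Slc46a3, and in 6 of them it ended between 149105001 and 149182000 at Slc7a1, a transporter of cationic amino acids, while in N18 WT at 12 cycles it ended at 149314000. This short domain was thus called in every lamin A/C library but 3A6 WT at 30 cycles.

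One edge divided the long domains from the actin genes. The long domains of N18 WT, 3A6 WT and N18 KO at 12 cycles and of N18 KO and LAP2alpha at 30 cycles ended between 143187001 and 143209000, beside Slc29a4, a transporter of monoamines. The spread of these 5 ends was 22 kb, or 2 EDD bins. Gene density was similar on both sides, 14 per Mb to the left and 10 to the right, as was G+C content (48.9% and 49.9%). LAP2alpha at 12 cycles ran on past it over Actb, Fscn1 and Rac1. Domains of N18 WT and 3A6 WT at 12 cycles and of LAP2alpha, N18 KO and 3A6 KO at 30 cycles began again between 144628001 and 144749000 near Pms2, a gene of DNA mismatch repair.

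Gene families of the block are given here by lists of families and functions, a gene again being counted where domains covered at least 50% of it. The counts stand beside each library's share of all 647 genes of the block, which was 87.2% at 12 and 36.3% at 30 cycles for LAP2alpha, 79.4% and 11.4% for N18 WT, and 80.4% and 6.18% for 3A6 WT. It was 56.6% and 83% for N18 KO, 13% and 46.7% for 3A6 KO, and 6.96% and 7.42% for lamin B1. Among genes of the nuclear envelope, Sun1 was held by 7 libraries, Tmem120b by 5 and Pom121 by 4, and no lamin B1 library held any of the 3. Among 12 cytoskeletal genes, LAP2alpha held 11 at 12 cycles and 5 at 30 cycles, N18 WT 7 and 1, 3A6 WT 8 and 0, N18 KO 6 and 8, 3A6 KO 1 and 5, and lamin B1 0 at both. For LAP2alpha these counts were near its share of all block genes. Actb, Rac1 and Fscn1 were held by LAP2alpha at 12 cycles alone, Arpc1a and Arpc1b, subunits of the actin-nucleating Arp2/3 complex, by 7 libraries and Stard13 by none. Of 16 housekeeping genes, LAP2alpha held all at 12 cycles and 5 at 30 cycles, N18 WT 11 and 1, 3A6 WT 10 and 0, N18 KO 6 and 12, and 3A6 KO 1 and 5. Most of these counts were near or below the library's share of all block genes. Hmgb1, an abundant chromatin protein gene, and Eif2ak1 were held by LAP2alpha at 12 cycles alone.

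Among developmental regulators, the ParaHox genes Gsx1, Pdx1 and Cdx2, homeobox genes of gut and brain patterning, were held together by the same 5 libraries, LAP2alpha and 3A6 WT at 12 cycles and LAP2alpha, N18 KO and 3A6 KO at 30 cycles. N18 WT held them at neither sonication. Their neighbor Flt3, a receptor kinase of blood progenitors, had the same set, while Flt1, a receptor for vascular endothelial growth factor, was held by LAP2alpha alone, at both sonications. Tbx5 was held by 8 libraries and Tbx3 by 7, among them 3A6 KO at 12 cycles, which held neither Cux1 nor Cux2. Of 24 genes of the Williams-Beuren interval, LAP2alpha, N18 WT and 3A6 WT held all at 12 cycles, N18 KO held 10 at 12 cycles and all at 30 cycles, and the other 7 libraries held 0. The edge of N18 KO at 12 cycles fell within this interval, between Eln, the elastin gene, which it held, and Wbscr28, which it did not.

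Among immune and sensory clusters, the 12 genes of 2-5A synthetases and their relatives, which sense double-stranded RNA, were all held by LAP2alpha, N18 WT, 3A6 WT and N18 KO at 12 cycles and by N18 KO and 3A6 KO at 30 cycles. LAP2alpha at 30 cycles held Oasl1 and Oasl2 only of these, N18 WT at 30 cycles held 5 others, and 3A6 KO at 12 cycles held 0. All 6 guanylate-binding protein genes on the block were held by N18 WT and 3A6 WT at 12 cycles and by N18 KO at 30 cycles. Lamin B1 held 5 at 12 cycles and 4 at 30 cycles, 3A6 KO at 30 cycles 4, N18 WT and 3A6 WT at 30 cycles 3 each, and LAP2alpha and both KO libraries of 12 cycles 0. Of 11 vomeronasal type 2 receptors, 3A6 WT at 30 cycles, 3A6 KO at 30 cycles and lamin B1 at 30 cycles held 10 each, lamin B1 at 12 cycles 9, 3A6 KO at 12 cycles 6 and 3A6 WT at 12 cycles 1, while LAP2alpha and N18 held 0. The exception was Vmn2r18, which lies far from the cluster and was held by none.

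Some liver and neuronal genes lay in domains of all 12 libraries. Of 9 Cyp3a genes, 3 (Cyp3a16, Cyp3a41b and Cyp3a57) were held by all 12 libraries and 5 by the 11 other than N18 WT at 12 cycles. Cyp3a13, which lies apart from the cluster, was held by 4 libraries. These genes are near-identical copies in part, and the authors discarded reads mapped at a quality below 20. How much signal over these copies was removed in this way cannot be read from the lists. Of 11 very long or neuronal genes, Sdk1, Tmem132c and Tmem132d were held by all 12 libraries, Tmem132b by 11, Ksr2, a scaffold of kinase signaling, by 10, and Nos1 by 9. Lamin B1 held 4 of the 11 at each sonication, and N18 WT, 3A6 WT and LAP2alpha at 12 cycles all 11. Auts2 (1106 kb) was held by 7 and Wbscr17 by 6, in neither case by lamin B1. The 14 numbered zinc finger genes, mostly repressors of transcription, had no common pattern, with 10 held by N18 KO at 30 cycles, 9 by LAP2alpha and by N18 WT at 12 cycles and 1 by lamin B1 at each sonication.

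SICER islands, short stretches of enriched windows, were a second call on the same reads. LAP2alpha had 265 islands at 12 cycles and 189 at 30 cycles, N18 WT 229 and 99, 3A6 WT 247 and 13, N18 KO 166 and 277, 3A6 KO 55 and 73, and lamin B1 9 and 14. The order of WT and KO islands was the same as that of domain coverage, fewer in KO at 12 cycles and more in KO at 30 cycles for both antibodies. By bp the N18 islands of 12 cycles covered nearly equal shares of the block, 7.55% in WT and 7.52% in KO. Island density in the block was 5.57 per Mb for LAP2alpha at 12 cycles, against 1.8 in the rest of the chromosome and 3.39 in the genome, and 0.189 per Mb for lamin B1 at 12 cycles, against 0.352 and 2.9. Lamin B1 islands were thus sparse on the whole of chromosome 5, where its EDD domains were not. Islands covered at most 12.5% of the block (N18 KO, 30 cycles), and 95.8% of LAP2alpha islands of 12 cycles lay at least 50% inside a domain of the same library, against 31.3% for N18 WT and 30.8% for 3A6 WT at 30 cycles. In N18 WT at 30 cycles islands covered 4.37% of the sequence inside domains and 4.4% of that outside, so in this library the readouts did not coincide.

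Few islands were common to many libraries. Of the block, 58.7% was in no island of any library, 24.7% in those of 1 library, 10.9% in those of 2, and 0 bp in those of all 12. The widest sharing was the window of 1 kb from 146403001 to 146404000 shown above, an island in every library except LAP2alpha at 12 cycles. It lies in the 0.363-Mb stretch from 146058001 to 146421000, which domains of all 12 libraries held, and its printed bases occur 1 time on chromosome 5. The longest island of the block was 102 kb, in Tmem132b in N18 KO at 30 cycles (4324 reads, 42.4 per kb), and the densest was 59 reads per kb, also in N18 KO at 30 cycles, from 146571001 to 146579000 near the Cyp3a genes. At Vmn2r9 lay the densest island of 3 libraries, 44.2 and 47.1 reads per kb for lamin B1 at 12 and 30 cycles and 51 for 3A6 WT at 30 cycles, while the longest LAP2alpha island of 12 cycles, 55 kb with 18.5 reads per kb, covered part of Sun1.

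Along the block, over 48 bins of 1 Mb, Pearson's r with the number of genes was computed for islands and for the domain-covered share of each bin. With islands at 12 cycles it was 0.361 for LAP2alpha, 0.377 for N18 WT, 0.0254 for 3A6 WT, 0.0667 for lamin B1, 0.287 for N18 KO and -0.203 for 3A6 KO. In the same order at 30 cycles it was 0.322, 0.149, 0.325, -0.121, 0.29 and -0.162. With domains it was 0.0792, 0.0137, 0.0782, -0.385, -0.24 and -0.614 at 12 cycles and -0.208, -0.6, -0.441, -0.501, 0.037 and -0.38 at 30 cycles. The value for islands was above that for domains in every library but 3A6 WT at 12 cycles, and no value for domains exceeded 0.0792. Some of these values rest on few bins. No island lay in 40 of the 48 bins for lamin B1 at 12 cycles and 3A6 WT at 30 cycles, and in 39 for lamin B1 at 30 cycles. Conversely, the LAP2alpha domain of 12 cycles filled most bins whole, which leaves its domain share little room to vary. The Spearman coefficient with islands was 0.479, 0.475, 0.121, 0.0319, 0.396 and -0.125 at 12 cycles and 0.415, 0.231, 0.294, -0.146, 0.336 and -0.102 at 30 cycles. With domains it was 0.05, 0.00119, 0.0567, -0.391, -0.276 and -0.693 at 12 cycles and -0.204, -0.656, -0.502, -0.545, 0.00679 and -0.38 at 30 cycles. Bins are neighbors on 1 chromosome and share library, depth and base composition, so these values are a description. Islands of LAP2alpha at 12 cycles varied more closely with G+C (r = 0.748) than with genes, and genes themselves varied with G+C at r = 0.293.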

How the data were processed

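Regions from ChIP-seq of LAP2alpha, lamin A/C (N18, 3A6) and lamin B1 in 12 of the 24 samples were used. The 4 input and 8 histone samples were not analysed here. Groups came from the sample labels, and the sequencing lane from the names of the files.

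Per the study's methods and the submitters' processing notes, adapters were removed by the authors (cutadapt), reads were mapped by Bowtie2 2.1.0 on the mm9 genome and downsampled by Picard, and they called broad domains with EDD (bins of 11 kb, gap penalty 5, FDR 0.1) and islands with SICER 1.1 (window 1000 bp, gap 3000 bp, FDR 0.01). The deposited EDD lists give a score per domain from the authors' caller, and the deposited SICER lists give the count of reads per island, which the authors had not normalized. The large EDD bins limit how finely edges can be placed. Depth is given here as reads in islands, and the read totals per sample that the study lists were not used. The authors discarded reads mapped at a quality below 20, removed PCR duplicates and downsampled each ChIP library to the read number of its input. Lists called separately in each library depend on its depth.

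Coverage, overlaps and gene counts were computed with Python 3.11.15, numpy 2.4.6 and scipy 1.17.1, plots with matplotlib 3.10.9. Interval arithmetic was tested on simulated data. Genes are the 22350 protein-coding genes of GENCODE vM1 on 20 chromosomes. They count as inside a domain when at least 50% covered. With 1 library per group no test was made. The members, gene lists and tests were chosen with earlier results of these data known. Stretches named are the longest of each kind (domains, the 12 longest of constant library set, and the longest lost, kept, gained or held at 1 sonication) and the edges that most libraries shared. The edges next to Slc29a4, Slc7a1, Pms2 and Gbp genes, the lamin B1 reference domains and their genes, and Sdk1 were named after their values were seen. Genes named in a stretch are list members or else its longest genes. Alternatives were islands for domains, domains above the median score, another span, a minimum stretch of 100 kb, gene starts, edge distances and bin sizes.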

Additional observations from a re-analysis of the deposited data

Results flagged for a closer look

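The sign of the difference between genotypes was opposite at the 2 sonications for both lamin A/C antibodies. With N18, KO minus WT coverage of the block was -13.9 percentage points at 12 cycles and 49.4 at 30 cycles. With 3A6 it was -46.8 at 12 cycles and 40.6 at 30 cycles. Each value rests on 1 library per genotype, and the difference between the sonications was not tested. The flow cell differed between 12 and 30 cycles and cannot be told apart from the shearing.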

How the results depend on the processing

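No paired analysis was possible because each group was 1 library. Without replicates, no value has an error. Read totals of the libraries that the study lists were not used here. The 4 KO minus WT and the 6 differences between 30 and 12 cycles had the same direction with SICER islands and with domains above the median score, and the cause of the changes in size was not tested. With SICER islands in place of domains, the covered share of the block was 9.54%, 7.55%, 8.31%, 0.419%, 7.52% and 2.47% at 12 cycles (LAP2alpha, N18 WT, 3A6 WT, lamin B1, N18 KO, 3A6 KO) and 8.93%, 4.39%, 0.492%, 0.618%, 12.5% and 3.16% at 30 cycles in that order. KO minus WT was then -0.0316 percentage points (N18) and -5.84 (3A6) at 12 cycles, and 8.1 and 2.67 at 30 cycles, so the N18 difference of 12 cycles nearly vanished. The 30 minus 12 cycle difference was -0.604 (LAP2alpha), -3.16 (N18 WT), 4.97 (N18 KO), -7.81 (3A6 WT), 0.696 (3A6 KO) and 0.2 (lamin B1).

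With domains above their library's median EDD score, coverage moved to 75.6% (N18 WT), 76.9% (3A6 WT), 15.2% (lamin B1) and 31% (3A6 KO) at 12 cycles. At 30 cycles it moved to 38.2% (LAP2alpha), 29.4% (N18 WT), 12.9% (3A6 WT), 16.1% (lamin B1) and 57.2% (3A6 KO). KO minus WT moved to -11.3 (N18, 12 cycles), 53.2 (N18, 30 cycles) and 44.3 (3A6, 30 cycles), and 30 minus 12 cycles to -47.6 (LAP2alpha), -64 (3A6 WT) and 0.902 (lamin B1). Within the span of the longest LAP2alpha domain, which fixes its own value at 100.0%, coverage was 88.3% (N18 WT), 89.3% (3A6 WT), 74.4% (N18 KO) and 36% (3A6 KO) at 12 cycles, and 48.9% (LAP2alpha), 35.8% (N18 WT), 21.3% (lamin B1), 91.6% (N18 KO) and 63.4% (3A6 KO) at 30 cycles. Grouping edges within 20 kb left 12 groups of 3 or more libraries in place of 22. The 12 gene counts by gene start, the gene counts of the 6 classes of stretches and the 24 groups at 100 kb were within 1.5 times the values given. Over stretches of at least 100 kb, KO minus WT was -14.1 and -46.3 at 12 cycles and 49 and 40.3 at 30 cycles (N18, 3A6). Between islands and genes, r changed sign in 500-kb bins for lamin B1 at 12 cycles (-0.00803) and with bp of islands for lamin B1 at 30 cycles (0.00808) and 3A6 WT at 12 cycles (-0.0023), all near 0.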
